A study of Mus musculus with 3 samples.

Results

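Stra8-positive differentiating spermatogonia are the germ cells of the testis that have begun to answer to retinoic acid while still dividing by mitosis. The cells described here were picked by their counts. A barcode, the tag of 1 droplet, was kept with at least 3000 unique molecular identifiers (UMIs, each standing for 1 captured RNA molecule) and at least 1000 genes. At most 10% of its UMIs could be mitochondrial, and under 2% could come from Prm1, Prm2, Tnp1 and Tnp2, the packaging proteins of the spermatid nucleus. A member then had at least 1 Stra8 UMI, and a sum over Kit, Dmrtb1, Crabp1, Uchl1 and Dmrt1 of at least 2 that exceeded the sum over the early meiotic genes Prss50, Meiob, Sycp1 and Tex15. This gave 225 members among 7279 barcodes that passed the filter and 33038 in all. They numbered 65 in the first wildtype library, 77 in the second and 83 in the knockout library.

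The study sampled dissociated testes of adult C57BL/6N mice with the 10x Genomics 3′ kit, version 3.1. Each of the 2 wildtype libraries came from 1 mouse, and a single library pooled cells of 2 mice carrying a conditional knockout of Tex10. Which Cre line drove the deletion and which exons it removed are not given in the sources used here. Tex10 encodes a subunit of a nuclear complex that takes part in ribosome assembly and in chromatin regulation. Values are given in the order wildtype 1, wildtype 2, knockout. The knockout has no replicate, so its difference is described beside the spread of the 2 wildtype libraries and is not tested; fits of 1 library against 2, which assume that the knockout varies like the wildtype, are given only as alternatives.

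In the adult mouse testis, stem and progenitor spermatogonia respond to a pulse of retinoic acid by turning on Kit and Stra8, and then pass through a series of mitoses as differentiating spermatogonia. A second pulse acts on preleptotene cells, where STRA8 together with MEIOSIN switches on the meiotic program. Stra8 is therefore read in mitotic and in premeiotic cells alike, and other genes are needed to tell these cells apart. The neighbouring class used here, called preleptotene-like, met the same filter with at least 1 Stra8 UMI and a meiotic sum of at least 2 that was at or above the spermatogonial sum. It held 210, 265 and 271 cells.

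Of 31 genes whose promoters were searched for motifs of these steps, 3 that hold one are shown. They are Stra8 itself and 2 genes that were low in members and high in preleptotene-like cells, Prdm9, which places meiotic recombination sites, and Prss50, a testis protease that served in the rule. Each window runs from 250 bases before to 50 bases after a transcription start, on the gene's strand, from RefSeq on GRCm38.p6. Capitals mark the retinoic acid receptor half-site AGGTCA in Stra8 and CNCCTCAG, a motif reported for STRA8 with MEIOSIN, in the other genes.
Stra8, plus strand, chr6:34920698-34920997: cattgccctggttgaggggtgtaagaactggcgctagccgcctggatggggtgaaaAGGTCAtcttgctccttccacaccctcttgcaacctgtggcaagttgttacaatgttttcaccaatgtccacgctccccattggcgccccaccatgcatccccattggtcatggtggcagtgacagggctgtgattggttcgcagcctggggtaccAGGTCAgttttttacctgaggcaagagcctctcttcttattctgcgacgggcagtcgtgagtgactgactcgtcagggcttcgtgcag
Prdm9, minus strand, chr17:15564305-15564604: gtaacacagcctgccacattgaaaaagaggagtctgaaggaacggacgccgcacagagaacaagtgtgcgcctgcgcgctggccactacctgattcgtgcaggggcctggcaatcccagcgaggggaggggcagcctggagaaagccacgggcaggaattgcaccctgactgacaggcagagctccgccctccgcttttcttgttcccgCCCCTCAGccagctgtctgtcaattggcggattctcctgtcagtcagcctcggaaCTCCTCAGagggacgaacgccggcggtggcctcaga
Prss50, plus strand, chr9:110857714-110858013: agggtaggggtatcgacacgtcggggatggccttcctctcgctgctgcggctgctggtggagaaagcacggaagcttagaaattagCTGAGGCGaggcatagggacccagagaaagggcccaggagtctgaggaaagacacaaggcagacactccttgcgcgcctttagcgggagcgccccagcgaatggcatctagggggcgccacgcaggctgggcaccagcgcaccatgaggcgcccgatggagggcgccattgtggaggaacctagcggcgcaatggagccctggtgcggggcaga
In the Stra8 window AGGTCA begins at base 57 and at base 213. Of 32851 promoter windows searched on both strands, 16.3% held AGGTCA and 1.81% held it 2 or more times. CNCCTCAG begins at bases 210 and 265 of the Prdm9 window, and the Prss50 window holds it on the opposite strand at base 87, written there as CTGAGGCG. It was found in 7.94% of all windows and 2 or more times in 0.511%. The other half-site searched, GGTTCA, was in 10.4% of windows and in none of these 3. AGGTCA was also present 2 times in Stxbp5l, which was lower in members than in preleptotene-like cells, and in Tex29 and Tmem270, which were lower than in cells with no Stra8 UMI. It was present 1 time in BC048562, also lower than in those cells, and in Crybg2, which was higher in members than in preleptotene-like cells. A window of Prr5, likewise higher in members, held GGTTCA 1 time. AGGTCA was thus found in genes higher and lower in members. The windows of Kit, Crabp1, Uchl1 and Dmrtb1 did not hold AGGTCA. CNCCTCAG was in 1 more of the 31 genes, Sycp1, and not in Gal3st1, Stxbp5l, Primpol, Top2b, Tslrn1 or a second Prdm9 window. A match is a description of the letters, and binding was not measured.

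Members did not form a single kind of cell, which touches every value below. In 30 of the 225 (6, 13 and 11 by library) the rule was met only with the UMIs of Dmrtb1, a DNA-binding protein of late spermatogonia, counted in. These 30 cells reached 201783 UMIs and held 32.4%, 37.6% and 30.9% of all member UMIs. Ldhc, the lactate dehydrogenase of spermatocytes and sperm, was at 2000 CPM or more in 26 (CPM, UMIs of a gene scaled to 1000000 UMIs of the cell or of the summed cells) of them, and 21 of them had a single Stra8 UMI. In 3 further members, 1 of wildtype 1 and 2 of the knockout library, at least 100 UMIs came from genes of somatic testis cells (Leydig cells in the first, Sertoli cells in the others). Setting these 33 aside left 192 members, 58, 64 and 70 by library. That step was chosen after the values were seen. Ldhc also passed 2000 CPM in some retained knockout cells, up to 3085.6 CPM. The highest value in a retained wildtype cell was 1729.5 CPM. Levels below are of the 192 unless the 225 are named.

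**Figure D1:**
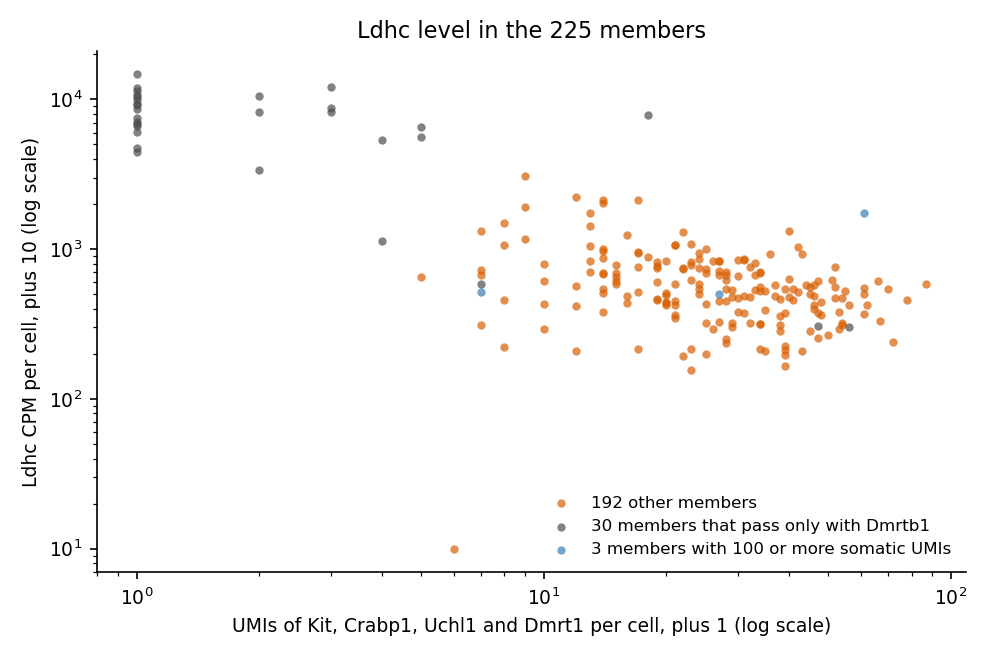
Each point is 1 of the 225 members, with the summed UMIs of Kit, Crabp1, Uchl1 and Dmrt1 plus 1 on the horizontal log axis and Ldhc in CPM plus 10 on the vertical log axis, coloured by subset. Of the 30 cells that pass only with Dmrtb1, 26 lie at or above 2000 CPM of Ldhc, mostly to the left of and above the 192 retained members, and 4 lie lower, in part among them.

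Stra8 was read far more often in barcodes that met the sums without Dmrtb1 than in the background. These barcodes include members as well as cells with no Stra8 UMI. Among filtered barcodes whose sum was carried by Kit, Crabp1, Uchl1 and Dmrt1, 41.5%, 46.0% and 35.6% had a Stra8 UMI, at median depths of 13563, 11578 and 17651 UMIs. Protamine-rich barcodes, mostly spermatids that should lack the gene, had one in 0.636%, 0.924% and 0.982%, at 10463, 9503 and 10866.5 UMIs. Barcodes whose sum was carried by Dmrtb1 gave 0.623%, 0.982% and 0.949% at 29805, 23563.5 and 35389 UMIs, with intervals that overlap those of the protamine-rich barcodes. After thinning each barcode to 3000 UMIs the first shares were 24.6%, 30.9% and 23.3%, and the others were at most 0.507%. Single-UMI cells still made up 55 of the 195 members that passed without Dmrtb1.

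Near the limits of the rule, 26, 25 and 25 of the 225 members had exactly 1 Stra8 UMI, and 31, 42 and 49 had 3 or more, up to 46. The spermatogonial sum exceeded the meiotic sum by only 1 in 3, 1 and 1 members. Just outside, 1, 4 and 1 Stra8-positive cells had equal sums, and 3, 2 and 2 fell short by 1. No barcode was a member in more than 1 library, although 28, 30 and 27 barcodes recurred between pairs of libraries.

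Members made up 4.94%, 4.46% and 5.09% of all cells in the 3 classes, that is members, preleptotene-like cells and cells that met the sums with no Stra8 UMI. The knockout share lay 0.386 percentage points above the wildtype mean, against a wildtype SD of 0.344 (n = 2). Its exact 95% binomial interval, 4.07% to 6.27%, held both wildtype values, and intervals here cover counting error only. Of members and preleptotene-like cells together, members were 23.6%, 22.5% and 23.4%, but this depended on depth. With at least 6000 UMIs per cell they were 34.3%, 34.3% and 23.1%, and the knockout interval of 18.7% to 28.04% then held neither wildtype value. Preleptotene-like cells had medians of 6274, 6024 and 8261 UMIs, so that limit removed more of them in the wildtype libraries. For the 192 members, the cells with no Stra8 UMI were cleaned in the same way, and the preleptotene-like cells were left as they were. The shares of the 3 classes were then 18.0%, 16.5% and 16.8%, so the difference was -0.439 points. The knockout interval of 13.3% to 20.7% again held both wildtype values. Depth differed, with medians of 15063, 12986 and 18825 UMIs in the members.

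The genes of the rule are described first, with no test, because they chose the cells. Stra8 was at 541, 624 and 560 CPM in the 192 members and at 721, 724 and 662 CPM in preleptotene-like cells. Uchl1, a ubiquitin hydrolase of spermatogonia, was at 999, 1105 and 910 CPM against 115, 167 and 128 CPM. Crabp1, which binds retinoic acid in the cytosol, was at 447, 425 and 422 CPM against 40.5, 58.1 and 51.1 CPM. Kit, the receptor whose appearance marks the step to differentiation, was at 154, 121 and 143 CPM against 63.4, 59.1 and 42.6 CPM. It had a UMI in 44 of 58, 41 of 64 and 48 of 70 members. Dmrt1, which holds back meiotic entry in spermatogonia, was at 218, 222 and 217 CPM against 49.5, 86.3 and 63.2 CPM. Dmrtb1 was at 71.5, 86.9 and 81.5 CPM in the 192 and at 353, 325 and 323 CPM in the 225.

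Genes that the rule did not use were mixed for the label. Sohlh1, a factor needed for spermatogonial differentiation, was at 149, 190 and 174 CPM in members and at 36.2, 46.4 and 40.7 CPM in preleptotene-like cells. Dnmt3b, a DNA methyltransferase of differentiating spermatogonia, was at 88.6, 116 and 112 CPM against 7.85, 14.5 and 13.0 CPM. In both genes every member value lay above every preleptotene-like value. Ly6k and Rhox13 of the same list went the other way, at 34.1, 31.7 and 25.6 CPM against 675, 551 and 642 CPM and at 82.9, 61.0 and 69.4 CPM against 210, 194 and 177 CPM. The 10 genes of the list summed to 771, 849 and 769 CPM in members and to 1097, 1009 and 1025 CPM in preleptotene-like cells, so the sum was lower in members. Within the 23 stem and progenitor genes, which summed to 497, 594 and 514 CPM in the 192, levels differed. Nanos2, which keeps stem cells undifferentiated, had 0, 0 and 1 UMIs, Ret, the receptor of a niche signal, had 1, 3 and 6, and Id4, an inhibitor of DNA-binding factors, had 2, 4 and 7, where the 225 had 29, 41 and 53. Other genes of the list were higher, with Sall4 at 90.9, 83.3 and 70.9 CPM and Pou3f1 at 110, 114 and 110 CPM. Of the somatic genes, Insl3 of Leydig cells had no UMI in the 192 members. Summed over the 12 Sertoli genes of the marker list the 192 stood at 204, 241 and 191 CPM, and over 7 Leydig genes at 6.81, 10.6 and 4.53 CPM. The preleptotene-like cells, from which no cells with somatic UMIs were removed, stood at 604, 520 and 835 CPM over the Sertoli genes.

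**Figure D2:**
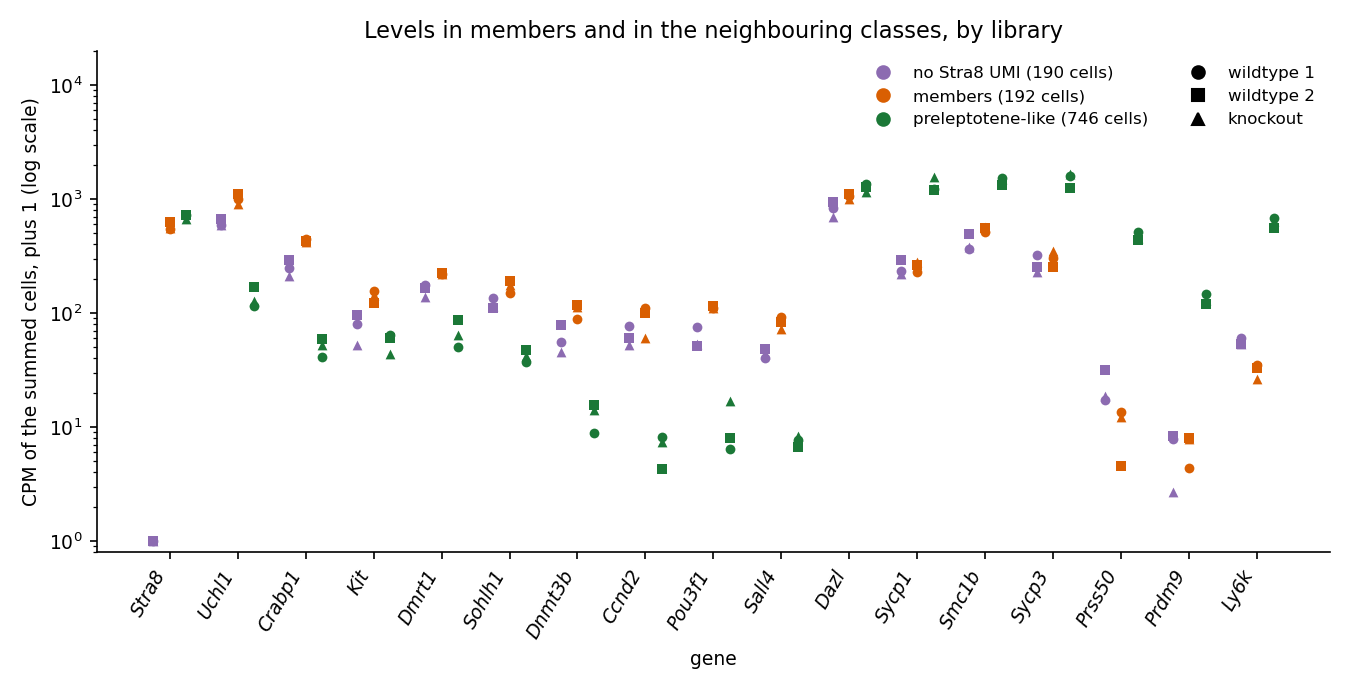
CPM of 17 genes in cells with no Stra8 UMI (190 after the same cleaning), in the 192 members and in 746 preleptotene-like cells, with 1 point per library. Uchl1 and Crabp1 are highest in members, and Prss50, Sycp3 and Prdm9 are highest in preleptotene-like cells in each of the 3 libraries.

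Members were compared next with preleptotene-like cells, from which the rule had divided them by meiotic genes. Sums of UMIs per library were compared over all 225 members with edgeR's quasi-likelihood test, with library as a block and the rule's genes left out. At an adjusted p under 0.05, 28.8% of the 11424 genes tested were higher in members and 29.7% were lower. The rule had divided the classes on genes of the same programs, so these calls describe the classes and nothing further is read from them. Of the 30 premeiotic and early meiotic genes outside the rule, 28 were tested, none was higher, 27 were lower and Rec114 was not called. The median log2 fold change of the list was -2.32, against -0.00 over all genes tested.

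Cohesin and synaptonemal complex genes, which hold and pair the chromosomes in meiosis, were detectable in members. The premeiotic list as a whole summed to 2565, 2432 and 2497 CPM in the retained members. In the cells with no Stra8 UMI, cleaned in the same way, it summed to 2308, 2364 and 2124.5 CPM. Prm1, Prm2, Tnp1 and Tnp2, genes of spermatids, summed to 4046, 4679 and 5048 CPM in the retained members. Whether RNA from other cells adds to these levels was not tested. Smc1b, a meiotic cohesin subunit, was at 513, 552 and 569 CPM in members and at 1543, 1334 and 1494 CPM in preleptotene-like cells. Sycp3, of the chromosome axis, was at 303, 252 and 349 CPM against 1594, 1239 and 1656 CPM. Prdm9 was at 3.41, 7.04 and 6.79 CPM against 145, 120 and 128 CPM, with a log2 fold change of -4.76 ± 0.23 (SE). Top2b, a DNA topoisomerase, was at 15.9, 9.39 and 12.1 CPM against 187, 152 and 211 CPM. Meioc, which works with the RNA helicase YTHDC2 in early meiosis, was at 28.4, 27.0 and 22.6 CPM against 499, 446 and 496 CPM. Other genes with large differences in this direction were Gal3st1, Stxbp5l, Primpol, Pbx3 and Tslrn1, with log2 fold changes from -5.14 to -4.02.

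Of the stem and progenitor list 9 of 11 tested genes were higher and none was lower, with a median of 2.13. Of 10 differentiation genes outside the rule 7 were higher and 2, Ly6k and Rhox13, were lower. Ccnd2, the cyclin that comes on at the step to differentiation, was at 110, 98.6 and 59.6 CPM in members against 7.25, 3.28 and 6.35 CPM. Trim71, an RNA-binding ubiquitin ligase of early germ cells, was at 106, 141 and 125 CPM against 7.85, 7.50 and 7.31 CPM, with a log2 fold change of 3.42 ± 0.19. The log2 fold change was 3.27 ± 0.25 for Ccnd2 and 2.95 ± 0.22 for Sall4, a zinc finger factor of progenitors. Cyba, Pou3f1, Crybg2 and Prr5 were higher by 2.66 to 3.37.

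Of 9 tested genes of the retinoic acid pathway 4 were higher in members and 2 were lower. The receptors Rara and Rxra were among the higher ones, and the receptors Rarg and Rxrb were not called. Rara was at 21.9 ± 4.39 CPM in wildtype members (SD, n = 2) and 27.2 CPM in knockout members, against 8.45, 8.44 and 11.8 CPM. Lower were Aldh1a2, which makes retinoic acid, and Rdh10, which makes its precursor. Aldh1a2 stood at 26.1, 35.2 and 24.9 CPM against 62.8, 61.0 and 73.1 CPM. Aldh1a1 was called higher in the 225, but wildtype 1 had 76.9 CPM of it in the 225 and 2.27 CPM in the 192. The cells set apart there were the 1 with Leydig genes and 6 that pass only with Dmrtb1. Which of them carried the gene was not tested.

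**Figure D3:**
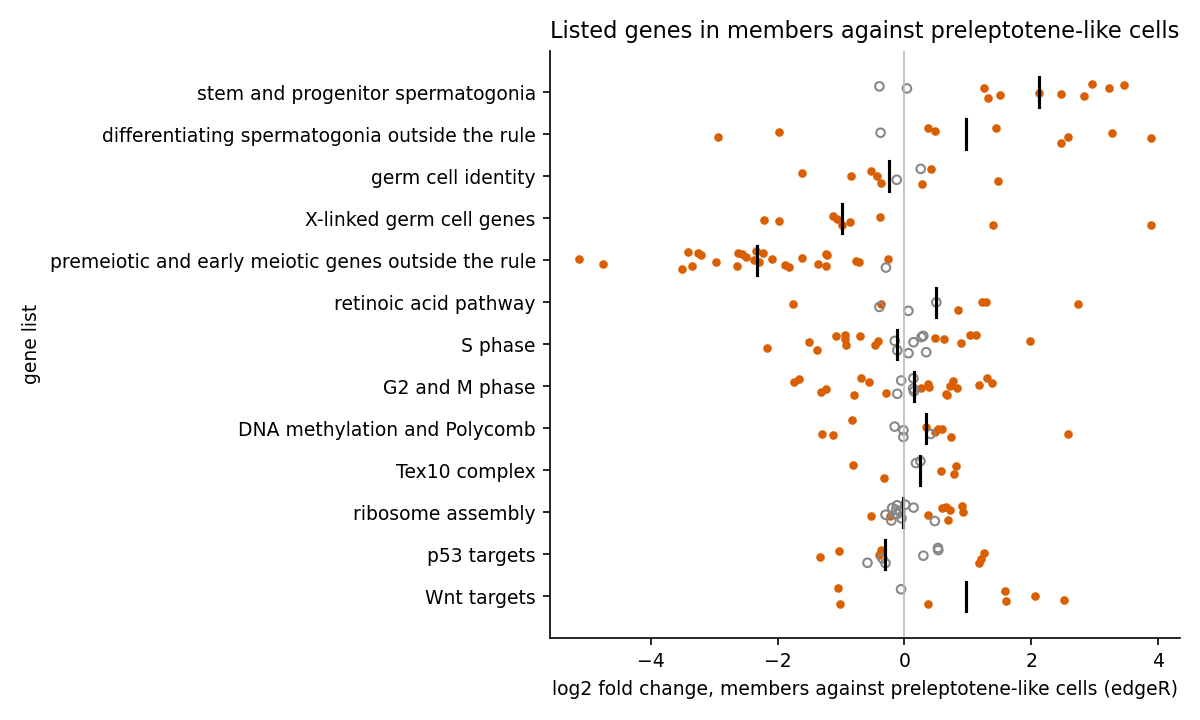
Log2 fold change of each listed gene between the 225 members and preleptotene-like cells, by gene list, with filled points for adjusted p under 0.05 in edgeR and a bar at the median. The premeiotic list lies below 0 with a median of -2.32 and the stem and progenitor list above it with a median of 2.13.

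Cycle genes were high in both classes. S phase genes summed to 3214, 2977 and 3239 CPM in the 192 members and to 2712, 2786 and 2896 CPM in preleptotene-like cells. In the 225 the sums were lower than in preleptotene-like cells, at 2422, 2234 and 2408 CPM, so the direction turned with the cells set apart. Of 23 genes tested in the 225, 6 were higher and 10 lower. Genes of G2 and M phase summed to 4016, 4489 and 4455 CPM against 4058, 4271 and 4282 CPM, ranges that overlap. In the 225 they were at 3517, 3894 and 3753 CPM. Of that list 11 of 24 were higher in the 225, among them Ccnb1 and Cdc20, which drive and end mitosis. Lower were 8, among them Mki67 and Top2a. The 225 include the cells that pass only with Dmrtb1. Against all cells with no Stra8 UMI, most of which carried spermatocyte genes, 13 of the list were higher in members and 6 lower. Cdc20 was among the lower and Ccnb1 was not called. Whether the excess of Ccnb1 and Cdc20 over preleptotene-like cells comes from the cells set apart was not tested. Top2a was at 290, 356 and 345 CPM against 774, 749 and 852 CPM. The X chromosome gave 1.81%, 1.82% and 1.77% of member UMIs and 2.11%, 2.02% and 1.93% of preleptotene-like UMIs. Of 9 tested X-linked germ cell genes Mageb4 and Rhox10 were higher in members and 7 were lower.

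Other lists were more divided. Of 10 germ cell identity genes 3 were higher and 5 lower, among them Dazl, an RNA-binding protein of all germ cells, at 1054, 1101 and 993 CPM against 1353, 1271 and 1158 CPM. Of the 7 genes of the Tex10 complex Mdn1, Nol9 and Wdr18 were higher and Tex10 and Las1l lower. Of 13 genes of DNA methylation and Polycomb 6 were higher, Dnmt1 among them at 304, 254 and 307 CPM against 140, 172 and 147 CPM, and 3 were lower. Of 20 ribosome assembly genes 7 were higher and 2 lower, with a median of -0.02. Of 13 p53 targets 3 were higher and 4 lower, and Bax, a promoter of cell death, was at 445, 450 and 493 CPM against 130, 133 and 145 CPM. Of 8 Wnt targets 5 were higher and 2 lower. The spermatocyte list, 7 of 8 higher in the 225, followed the 30 cells set apart: Ldhc was at 2953, 3348 and 3596 CPM in the 225 and at 507, 580 and 573 CPM in the 192, below the 1274, 1477 and 1577 CPM of preleptotene-like cells.

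Cells that met the spermatogonial sums with no Stra8 UMI numbered 3704, but 957, 1311 and 1148 of them met the rule only through Dmrtb1. Against all 3704, 33.1% of 17787 genes were higher in members and 39.1% lower in the same edgeR test, and nothing is read from these shares, since most of the 3704 carried spermatocyte genes. Their spermatocyte list summed to 12351, 11345 and 11068 CPM, against 795, 964 and 892 CPM in the 192 members. The largest log2 fold changes upward were those of Olfr655, P3h3, Mex3a, Pou3f1, Smagp, Sall4, Mageb4 and Rcan3, from 5.28 to 5.63, and downward those of Lcn2, Tex29, BC048562, Banf2, Spata25, Clec4a2, Iqca1l and Tmem270, from -3.78 to -2.78. The closer comparison was with 190 cells that met the sums without Dmrtb1 and had under 100 somatic UMIs. Uchl1, used in the rule, was at 597, 669 and 587 CPM there. Sall4 was at 39.8, 47.2 and 42.6 CPM, and Smagp, a small membrane protein, at 94.6, 72.2 and 91.2 CPM against 187, 160 and 183 CPM in members. Sdc4, a surface proteoglycan of undifferentiated spermatogonia, stood higher there than in members, at 177, 248 and 205 CPM against 52.2, 128 and 72.4 CPM. Egr4, a factor of the same early cells, was at 57.6, 118 and 75.9 CPM against 23.8, 37.6 and 53.6 CPM.

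Differences among the 192 members are described with no test. Stra8 UMIs, which the rule used, gave the first division: cells with 3 or more (30, 38 and 47 cells) had Ccnd2 at 181, 134 and 77.3 CPM, and those with 1 had 0, 25.4 and 0 CPM. Ccnd1, another D-type cyclin, ran the other way, at 116, 122 and 137 CPM with 3 or more Stra8 UMIs and at 222, 234 and 294 CPM with 1. So did Meioc, of the premeiotic list, at 7.89, 5.30 and 13.4 CPM against 63.3, 96.5 and 51.9 CPM. For each of these genes, named after their values were seen, the values of the cells with 3 or more and with 1 Stra8 UMI did not overlap across the libraries. Cells with 1 UMI were also shallower, at median depths of 11310.5, 11219.5 and 14634 UMIs against 16339, 12852 and 19520 UMIs, and the part of depth in these differences was not tested.

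Members without a Kit UMI (14, 23 and 22 cells) had more of the progenitor gene Sdc4, at 139, 314 and 101 CPM against 32.2, 38.3 and 65.2 CPM in those with Kit. Members were also ranked by the share of UMIs in the premeiotic list and divided into 3 groups of near equal size. Smc1b, a gene of that list, was at 240, 381 and 411 CPM in the lowest group and at 768, 727 and 736 CPM in the highest. Ccnd1, outside the list, was at 114, 124 and 149 CPM in the lowest and at 227, 232 and 168 CPM in the highest. Since Meioc and Ccnd1 moved in both divisions, these are not shown to be separate. The cell-to-cell variance of a gene relative to its mean (Fano factor, at 3000 UMIs per cell) had a median of 0.884 over genes in the 192.

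Ranked by the lowest of the 3 libraries, among genes with a mean of at least 0.1 UMIs, the gene with the highest such variance was Olfr655, an olfactory receptor gene, at 18.6, 7.50 and 13.2 in the 192. A few cells held nearly all of its UMIs. It had a UMI in 11, 14 and 33 cells, and 3, 3 and 10 cells with 5 or more UMIs held 89.6%, 91.7% and 92.0% of its total. The top cell of each library had 123, 131 and 312 UMIs. These cells were also deep, with median totals of 17542, 23264 and 22683 UMIs against 13490, 11941 and 16919 UMIs in cells without the gene. P3h3, a collagen prolyl hydroxylase, also ranked high, at no less than 4.32. In the 225 the leading gene was Ldhc, at no less than 11.7, from the 30 cells carried by Dmrtb1.

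For the knockout, Tex10, on chr4:48430858-48473459 of GRCm38, was examined first. In the 192 members it was at 156, 146 and 146 CPM, the knockout interval being 126 to 168 CPM, and in the 225 at 121, 125 and 110 CPM. The 3′ counts read the end of the transcript and need not see a deletion elsewhere in it, so this level does not check the labels. The other genes of its complex gave no call, and the 7 summed to 898, 936 and 916 CPM. Senp3, a SUMO protease of the complex, was the farthest of those described, at 101, 123 and 69.4 CPM.

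Expression in the members of the knockout library was compared with both wildtype libraries by a rule of size. A gene was called when its CPM, with 1 CPM added, differed at least 2-fold from each wildtype library in the same direction, with the smaller log2 ratio at least 2 times that between the wildtype libraries, and reached 20 CPM in 1 library. In the 225 members 58 genes were higher (0.725% of 7995) and 179 lower (2.24%), a balance that turned with the cells used: with at least 2 Stra8 UMIs 107 were higher and 31 lower, and without the top doublet scores 59 and 41. With each wildtype library put in the knockout's place, 38 and 23 genes were called. In the 192 members 28 were higher and 23 lower, 0.674% of 7565, and the same exchange called 41 and 27. Only 29 genes were called in both sets of cells. The 51 calls of the 192 therefore stand beside 41 from an exchange of wildtype libraries. Of the 51, 6 (11.8%) lay on chromosome 4, which carries Tex10, against 6.58% of the genes tested. Among them Rps6ka1 and Stmn1, called higher, and Col16a1 and Crybg2, called lower, lay between bases 130047840 and 134473843. Whether position on this chromosome has a part in these calls was not tested.

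**Figure D4:**
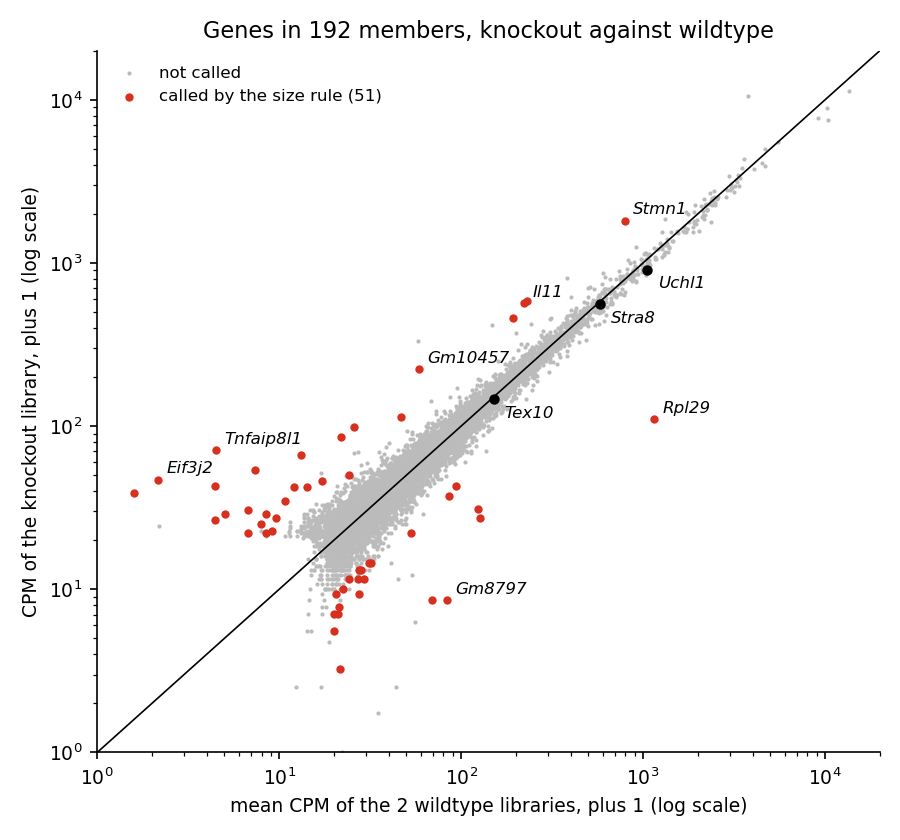
CPM of each gene in the 192 members, with the mean of the 2 wildtype libraries on the horizontal log axis and the knockout library on the vertical log axis. The 51 genes called by the rule of size are coloured, with Rpl29 far below the diagonal and Eif3j2 far above it.

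The rule's spermatogonial genes were not called in the knockout library, but they had chosen the cells of every library, so nothing is read from that. Of genes the rule did not use, none of the stem, differentiation, premeiotic, retinoic acid, cycle, DNA methylation, ribosome assembly, p53 or Wnt lists was called in either set. In the 192 only 8 of 23 stem, 18 of 30 premeiotic and 5 of 18 retinoic acid genes reached the level to be tested. The rule called 0.674% of all genes tested there and 2.96% in the 225. Lists this short would hold few or no calls at such shares, so their absence does not show that these programs were unchanged. In the 192 the stem and progenitor list summed to 513.6 CPM in the knockout against 545.7 ± 68.3 CPM in wildtype (SD, n = 2). The differentiation list stood at 769.3 against 809.9 ± 54.9 CPM and the premeiotic list at 2496.6 against 2498.8 ± 94.2 CPM. Genes of S phase were at 3238.7 against 3095.4 ± 167.6 CPM. Each of these 4 lay within 1 wildtype SD of the mean. Other lists lay beyond it. The spermatid list was at 574.0 against 701.3 ± 4.01 CPM and germ cell identity genes at 2320 against 2423 ± 16.8 CPM. The lists of somatic cells also lay beyond it, the Sertoli list at 190.8 against 222.5 ± 25.6 CPM. Higher in the knockout were p53 targets, at 951 against 905.7 ± 0.770 CPM, and ribosome assembly genes, at 6802 against 6603 ± 83.4 CPM. The retinoic acid pathway was at 270.0 against 288 ± 12.5 CPM. DNA methylation and Polycomb genes were at 1849 against 1805 ± 27.2 CPM. In the 225 the premeiotic list was at 2653 against 2524 ± 16.8 CPM. An SD from 2 libraries is itself uncertain, and these differences were not tested. The lowest of the differentiation genes relative to wildtype included Ccnd2, at 57.1% of the wildtype mean, and Rhox10, at 42.0, 49.3 and 27.9 CPM, both below the 2-fold limit.

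Listed genes that were called belonged to other cell types. In the 225, Ctsl, Clu, Aard and Amhr2 of the Sertoli list were higher and the spermatid gene Acrv1 was lower. The Sertoli list summed to 167, 163 and 892 CPM there, and 2 knockout members held the excess: without them and the other cells set apart, Clu was at 11.4, 28.2 and 12.8 CPM and Amhr2 at 3.41, 3.52 and 4.53 CPM. Prnd, Serpina5 and Gm35533, called higher in the 225, were likewise at 0, 0.754 and 2.26 CPM in the knockout library of the 192. In the 192 the 1 listed gene called was Spag6, a sperm tail gene of the spermatocyte list, at 40.6% of the wildtype mean. Among genes called lower in the 225, Zp3r, Gm47381 and 1700041C23Rik were not called in the 192.

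Rpl29, a protein of the large ribosomal subunit, was the lower gene with the largest difference in both sets by the smaller of its 2 log2 ratios. It was at 1149, 1154 and 109 CPM in the 192, and the knockout interval was 92.3 to 129 CPM. All 58 and all 64 wildtype members had a UMI, at medians of 15 and 12 per cell, and 58 of 70 knockout members had one, at a median of 2. The same difference was present in preleptotene-like cells, at 842, 887 and 75.0 CPM, and in the 190 cells with no Stra8 UMI, at 1402, 1380 and 127 CPM. Of the 31-base words in its last 500 transcribed bases, 57.7% also occur in other genes, mainly its pseudogenes, so its count is uncertain. Gm8797, at 63.6, 102 and 7.54 CPM, shares 93.0% of such words with the ubiquitin gene Ubb and related copies.

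Eif3j2, a copy of a translation initiation subunit, was at 1.14, 1.17 and 46.0 CPM. It had 1 UMI in each wildtype set and 61 UMIs in 42 of 70 knockout members, and it shares 93.4% of its words with Eif3j1. Its level was 1.81, 5.16 and 30.8 CPM in preleptotene-like cells, so the difference was not limited to members. Stmn1, a regulator of microtubules that also has related copies (26.2% of words shared), was at 874, 709 and 1818 CPM. Every one of the 70 knockout members had it, at a median of 33 UMIs against 12.5 and 9 in the wildtype libraries. Stmn1 was also higher outside the members, at 335, 294 and 790 CPM in preleptotene-like cells.

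Other genes were higher in summed counts. Il11, a cytokine, was at 246, 197 and 565 CPM, with a UMI in 39 of 58, 41 of 64 and 56 of 70 cells. In preleptotene-like cells it was at 37.4, 31.9 and 116 CPM. Tmem267, a membrane protein, was at 236, 222 and 582 CPM, but its median was 1 UMI per cell in each library and 33 of 58, 37 of 64 and 44 of 70 cells had one. In the cells with no Stra8 UMI it was at 218, 221 and 200 CPM, where the knockout value was the lowest. Rps6ka1, a kinase below growth factor receptors, was at 22.7, 23.5 and 49.0 CPM in members and at 15.1, 18.8 and 17.2 CPM in preleptotene-like cells. Whether the difference of these 2 genes between classes exceeds library variation was not tested. Hist1h4d, a histone gene, was at 52.2, 38.7 and 113 CPM. Hist1h2ap was called lower at 148, 98.6 and 30.2 CPM, but 93.4% of its words occur in other histone genes.

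Other calls rested on single cells. Of the 28 genes higher in the 192, 9 had at least 50% of their knockout UMIs in 1 cell, among them Hykk, Gm45464, P2rx4 and Atg2a, and 15 had under 15%. For Tnfaip8l1, at 2.27, 4.70 and 70.1 CPM, 1 cell held 90.3% of the knockout UMIs. Of the 23 lower genes only Phkg1 was of this kind, at 54.5, 82.2 and 7.54 CPM, with 1 cell holding 74.3% of the UMIs in wildtype 2. Olfr655 was called higher, at 186, 197 and 460 CPM, and its top knockout cell held 51.1% of the UMIs.

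**Figure D5:**
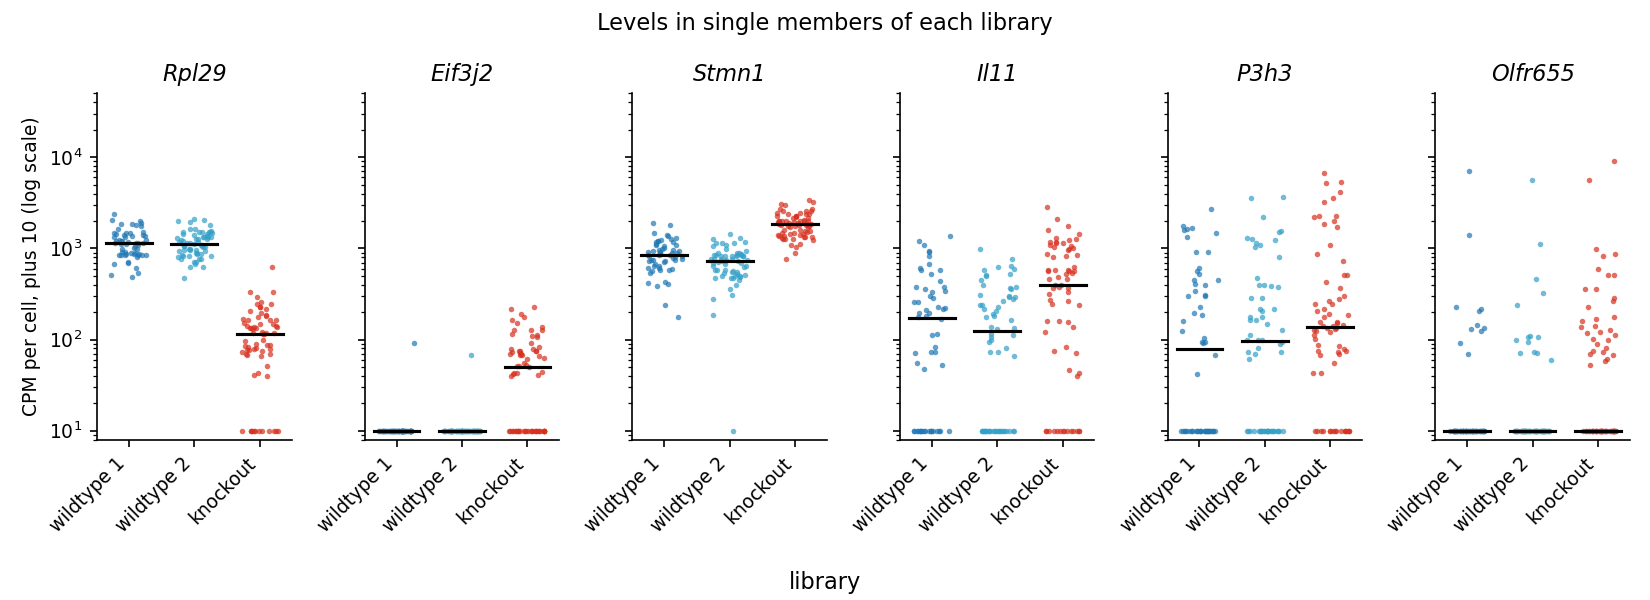
CPM per cell of Rpl29, Eif3j2, Stmn1, Il11, P3h3 and Olfr655 in the 192 members of the 2 wildtype libraries and the knockout library, with 1 point per cell and a bar at the median. Rpl29 is lower and Stmn1 higher across the knockout cells, whereas the Olfr655 signal comes from few cells of each library.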

How the data were processed

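The authors deposited raw UMI counts for 32285 genes per barcode, and the file headers name Cell Ranger 4.0.0 as their source; the submitters' processing notes also name Seurat 4.0.5 and mm10. Libraries held 93418341, 96001773 and 147783171 UMIs, so the depth differs by library, and the members summed to 1326127, 1364217 and 2057427 UMIs. The members, gene lists and tests were chosen with earlier results of these data known. Scrublet (scanpy 1.11.5) marked only 1, 2 and 0 barcodes, under 0.5%, so doublets were kept in and the top 8% of scores left out as an alternative. For each class, the UMIs of a library's cells were added up and scaled to CPM. Classes were compared with edgeR 4.0.16 (R 4.3.3; TMM, filterByExpr, Benjamini-Hochberg 0.05), tested on simulated data, and DESeq2 1.42.0 was an alternative. Genes were named by rule: those of the member rule and Tex10, up to 4 of the highest CPM in each list and any that were called, the 8 highest and 8 lowest fold changes of each class comparison at 50 CPM or more, 6 per direction of the knockout comparison, and 10 by Fano factor; some of these genes are not reported here. Others named (Meioc, Egr4, Rhox10, Sdc4 in cells without Kit, Ccnb1, Cdc20, Mki67, Il11, Tmem267, Rps6ka1, Hist1h4d, Hist1h2ap, P2rx4, Atg2a) were chosen after their values were seen. Meiosin, Iho1 and Pramex1 matched no symbol in the files. Gene positions come from GENCODE M21 (32235 identifiers matched), and promoters were found for 31 of 40 genes. The mice were separate animals, but 1 knockout library gives no spread.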

Additional observations from a re-analysis of the deposited data

How the results depend on the processing

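The member share, knockout minus wildtype mean, of 0.386 percentage points was 0.143 to 0.630 with 1 wildtype library left out. It became -1.08 when the sum left out Dmrtb1 and -0.439 when cells with 100 or more somatic UMIs were also left out. The preleptotene-like cells stayed the same in both. These 2 alternatives, and equal weights per cell, were chosen after seeing the data. Against cells with no Stra8 UMI, edgeR's 12857 calls became 5847 and 2595 under the same 2 alternatives, which change the cells compared. Against preleptotene-like cells, 6679 calls became 4430 with DESeq2. The 237 knockout calls became 138 with at least 2 Stra8 UMIs, 100 without the top doublet scores, 88 without Dmrtb1, 51 also without somatic cells, 81 with equal weights, 935 with no CPM minimum and 513 at 1.5-fold; higher and lower genes were then 66 and 22 without Dmrtb1 and 47 and 34 with equal weights, where the main split was 58 and 179. They were 420 to 447 with 1 wildtype library left out, and the 51 of the 192 members were then 174 to 184. As tests of 1 library against 2, edgeR called 598 genes (1523 at an unadjusted p under 0.05) and DESeq2 31 (345), and the cause of that gap was not tested. G2 and M phase, knockout minus wildtype, was 47.8 CPM and became 363 CPM with at least 2 Stra8 UMIs. The X-linked share, -0.0736 percentage points, became 0.0716 with at least 2 Stra8 UMIs and -0.0022 without Dmrtb1. For single genes, 124 of the alternative values of the named knockout genes kept their call and 20 lost it, and all 192 values of the genes named against preleptotene-like cells kept theirs. Leaving out the library block gave 12786 and 6057 calls in the class comparisons. No paired analysis of knockout and wildtype was possible, because the labels link no wildtype library to the 1 knockout library. Depth limits genes near 1 UMI per library sum: an interval such as 126 to 168 CPM for Tex10 is counting error alone.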
